A study of Homo sapiens with 6 samples.

Results

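The genes described here are 46 members of the unfolded protein response and the integrated stress response, taken by name from the 20851 genes of the deposited table. They fall into 2 arms that are described apart, 19 genes of the ATF6/XBP1 arm and 27 genes of the ATF4 arm. RNA-seq had been performed on 6 cultures of A375, a human melanoma cell line grown in RPMI-1640 medium with serum and antibiotics. Of these libraries 3 came from A375RIPK4.KO cells, clone #1, in which RIPK4 was targeted by CRISPR/Cas9 with a lentiviral sgRNA. The other 3 came from A375neg cells, which carried a lentiviral nontargeting sgRNA and which the labels call a GFP control. The series calls the 3 libraries of each group biological replicates. The labels name no drug or stressor for either group. The knockout was 1 clone, so effects of RIPK4 loss and of that clone cannot be told apart. The labels name GFP for A375neg only, so an effect of such a difference cannot be told apart either. Poly(A) RNA was sequenced with strand-specific libraries, and the comparison asks how transcription differs once RIPK4 is lost.

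Misfolded protein in the endoplasmic reticulum (ER) is sensed by ATF6, by ERN1 (IRE1alpha) and by EIF2AK3 (PERK). ATF6 is cut free to enter the nucleus and ERN1 splices the XBP1 mRNA, and both routes raise the genes of ER chaperones, disulfide isomerases and ER-associated degradation. EIF2AK3, and the amino acid sensor EIF2AK4 (GCN2), phosphorylate eIF2alpha, which slows translation in general but favours translation of the ATF4 mRNA, whose product raises genes of amino acid synthesis, one-carbon metabolism, tRNA charging and cell death. XBP1 splicing, ATF6 cleavage and ATF4 translation leave no trace in a count of reads per gene, so the values below are mRNA levels of these genes and of their targets. Both arms are known to be active in many tumours, melanoma included.

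The ATF6/XBP1 arm is known for a promoter element, the ER stress response element (ERSE), which joins a CCAAT and a CCACG at a fixed distance. The element was searched on both strands in the RefSeq promoter windows (GRCh38.p14, 250 bases before to 50 after each start), which were at hand for 40 of the 46 members. A gene with several windows was counted where any of them held the motif. It was held by 6 of 18 matched genes of the ATF6/XBP1 arm (HSPA5, HSP90B1, CALR, CRELD2, PDIA6 and XBP1) and by 0 of 22 of the ATF4 arm, against 25 of 27305 genes in all (0.0916%). These sites are shown because the element is the one this arm is known for, with 20 bases on either side, the element in capitals, and each written 5′ to 3′ along its gene:
HSPA5, chr9:125241371-125241429, minus strand: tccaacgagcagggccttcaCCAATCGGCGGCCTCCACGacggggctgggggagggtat
HSP90B1 distal, chr12:103930196-103930254, plus strand: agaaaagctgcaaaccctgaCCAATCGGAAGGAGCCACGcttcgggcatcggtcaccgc
HSP90B1 proximal, chr12:103930301-103930359, plus strand: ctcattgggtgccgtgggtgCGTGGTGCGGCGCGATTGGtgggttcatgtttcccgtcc
CALR, chr19:12938364-12938422, plus strand: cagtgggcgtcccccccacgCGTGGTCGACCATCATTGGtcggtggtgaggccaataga
CRELD2, chr22:49918534-49918592, plus strand: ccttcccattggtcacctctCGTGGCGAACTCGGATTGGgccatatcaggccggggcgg
PDIA6, chr2:10812833-10812891, minus strand: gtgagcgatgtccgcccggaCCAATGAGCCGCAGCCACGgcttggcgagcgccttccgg
XBP1, chr22:28800583-28800641, minus strand: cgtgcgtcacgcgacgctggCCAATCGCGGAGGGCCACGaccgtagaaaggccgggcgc

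The element of the proximal HSP90B1, the CALR and the CRELD2 sites lies on the opposite strand and so appears as its reverse complement. Its first base lay 66 bases before the start of HSPA5, 52 before that of XBP1, 80 before that of CRELD2 and 225 before that of CALR, and 194 and 89 before that of HSP90B1. The PDIA6 site lay 86 bases before an alternative start of that gene. The element contains 2 shorter motifs that were also searched alone. CCAAT was found in 17 of 18 ATF6/XBP1 genes and 11 of 22 ATF4 genes (39.7% of all genes), and CCACG in 15 of 18 and 15 of 22 (42.1% of all genes). A form of the composite element of ATF4 and C/EBP factors with a fixed last base, TGATGNAAT, was found in GARS1 only among the 40 genes (1.22% of all genes). TGACGTGG, known as the UPR element, was found in HYOU1 and ALDH18A1 (0.927% of all genes). No match says only that these letters are not in these windows.

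Library totals ran from 21882863 to 26694140 counts. RIPK4 itself had 319, 368 and 404 counts in A375neg and 42, 51 and 61 in A375RIPK4.KO, a log2 fold change of -2.69 ± 0.17 (SE). Of 9 melanoma and melanocyte markers 5 were listed, with summed counts of 9492 to 10823 in A375neg and 7828 to 8351 in A375RIPK4.KO, most of them from SOX10, while TYR, MLANA, DCT and, under its plain name, PRAME were not listed. MITF, S100B and S100A1 were lower in A375RIPK4.KO, with log2 fold changes of -0.44, -0.89 and -0.86 (adjusted p = 0.0449, 0.0360 and 0.0449 in edgeR's quasi-likelihood test). The leukocyte markers summed to at most 5 counts, the endothelial markers to 28 to 38 and 5 to 8, and the epithelial markers, nearly all of them KRT14, to 470 to 619 and 129 to 164. A375RIPK4.KO replicate 2 stood apart, since its log2 level fell by 0.0437 for each doubling of exonic length, against -0.0030 to 0.0158 in the other libraries. The part of that slope and of the marker differences in the results below was not tested beyond the values given.

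Of the 46 members 44 had enough counts to be tested with edgeR's quasi-likelihood test, the exceptions being NUPR1 and ASNS. Values per library are normalized counts, which are raw counts scaled to a common library size. A gene is called changed here where it passed a Benjamini-Hochberg adjusted p of 0.05 over all 14443 genes tested and differed by 1.5-fold or more, which 9.04% of all genes did. This held for 2 members, PHGDH, which was higher in A375RIPK4.KO (4.39% of all genes), and ALDH1L2, which was lower (4.65% of all genes). At an adjusted p under 0.05 with no limit on the fold, 6 members passed against 16.6% of all genes tested. They were PHGDH and PPP1R15A, which were higher (8.40% of all genes), and HSP90B1, PSPH, WARS1 and ALDH1L2, which were lower (8.24% of all genes). The groups did not overlap for 17 of the 44 members (38.6%, against 36.5% of all genes), 4 of them higher (18.7% of all genes) and 13 lower (17.8% of all genes). The 95% interval of the fold change lay within 1.5-fold either way for 34 of 44 members (77.3%, against 57.6% of all genes). The members' median log2 fold change was -0.07, with 11 values above 0 and 33 below, beside a median of -0.0047 over all genes tested. Over all genes tested 7119 values were above 0 and 7324 below.

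**Figure D1:**
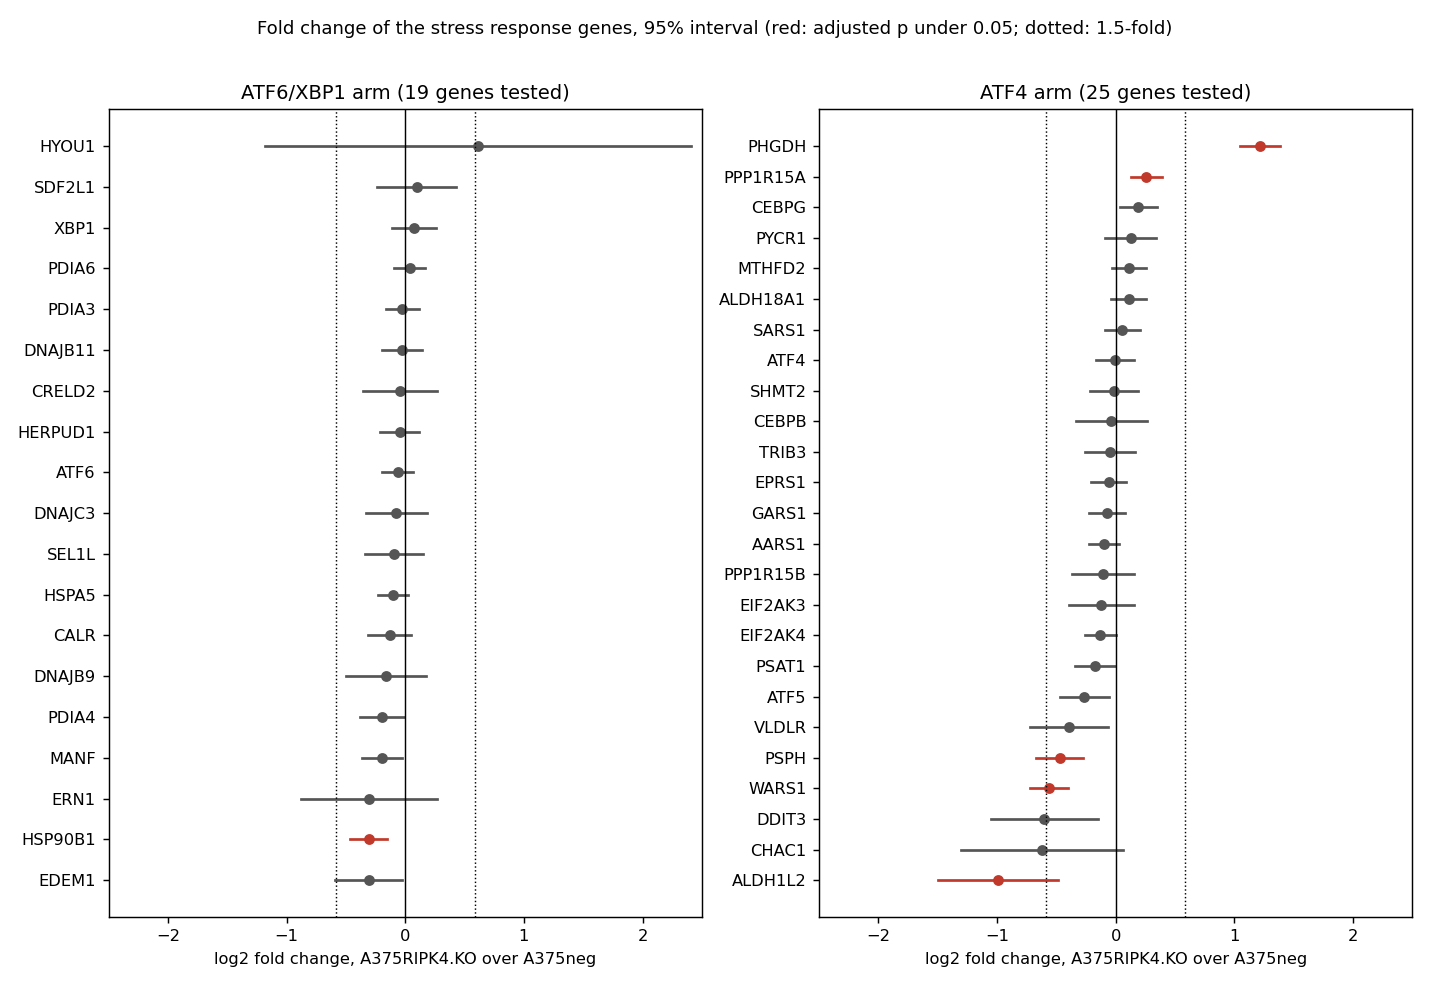
The log2 fold change of A375RIPK4.KO over A375neg (x axis) is drawn for each of the 44 members tested, with its 95% interval, by arm; red marks an adjusted p under 0.05 and the dotted lines 1.5-fold. Most genes sit close to 0 with intervals inside the dotted lines, PHGDH stands alone on the right at 1.21 and ALDH1L2 on the left at -0.99, and the interval of HYOU1 spans most of the axis.

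In the ATF6/XBP1 arm no member met the call, and only HSP90B1 fell at an adjusted p under 0.05. With DESeq2 the number changed was also 0 of 19 (8.07% of all genes given an adjusted p), and 4 of the 19 had an unadjusted p under 0.05 in edgeR's quasi-likelihood test (21.1%, against 30.0% of all genes). The median log2 fold change of the arm was -0.07 and 15 of 19 values were below 0. The groups did not overlap for 5 of the 19 members (26.3%, against 36.5% of all genes), HSPA5, HSP90B1, PDIA4, MANF and EDEM1, and all 5 were lower in A375RIPK4.KO. The intervals of 16 of the 19 lay within 1.5-fold either way, the exceptions being HYOU1, ERN1 and EDEM1.

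None of the 3 sensors and factors of this arm passed the adjusted p. ATF6, the membrane-tethered transcription factor, had normalized counts of 2512, 2345 and 2468 in A375neg and 2256, 2379 and 2373 in A375RIPK4.KO. XBP1, whose spliced mRNA encodes the active factor, had 1375, 1467 and 1372 against 1359, 1649 and 1423. ERN1, the kinase and endoribonuclease that splices XBP1, had 78.0, 93.0 and 69.2 against 66.7, 45.9 and 82.1. The groups overlapped for each of the 3 genes, and for XBP1 the highest and the lowest library both belonged to A375RIPK4.KO. The log2 fold changes were -0.06 (95% interval -0.20 to 0.07) for ATF6, 0.07 (-0.11 to 0.26) for XBP1 and -0.30 (-0.87 to 0.27) for ERN1, with adjusted p of 0.517, 0.605 and 0.472. The value of ERN1, a gene of low count, was -0.10 without A375RIPK4.KO replicate 2, -0.18 without A375neg replicate 2 and -0.51 without A375RIPK4.KO replicate 3, and its interval does not exclude a fall of a size that would be called.

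Among chaperones and their cofactors, HSPA5 (BiP), the ER Hsp70 that holds the sensors inactive and the standard readout of ER stress, had normalized counts of 13180, 13122 and 12901 in A375neg and 12011, 12418 and 12099 in A375RIPK4.KO. Every A375RIPK4.KO library lay below every A375neg library, but the log2 fold change was -0.10 ± 0.06 (SE; 95% interval -0.23 to 0.02; adjusted p = 0.256). HSP90B1 (GRP94), the ER Hsp90, had 17638, 16373 and 17412 in A375neg against 14245, 12840 and 14477 in A375RIPK4.KO. The groups were apart and the gene fell 1.24-fold, a log2 fold change of -0.31 ± 0.07 (SE, adjusted p = 0.0149 in edgeR's quasi-likelihood test). HSP90B1 did not pass without A375neg replicate 1 (adjusted p = 0.0811) or without A375neg replicate 3 (adjusted p = 0.0634), with log2 fold changes of -0.29 and -0.30. Fewer genes passed in the whole table in those fits, 1584 and 1653 against 2403 with all libraries. The promoter of HSP90B1 holds the pair of ERSE sites printed above and that of HSPA5 holds 1.

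CALR, the lectin chaperone calreticulin, was the most abundant member per length, at 325 CPM per kb (counts scaled to a common library size, per kilobase of exon) in A375neg and 297 in A375RIPK4.KO. Its normalized counts were 21494, 22072 and 21342 against 17462, 21394 and 20489, so that A375RIPK4.KO replicate 1 stood below the rest and the groups overlapped narrowly. The log2 fold change was -0.13 (95% interval -0.31 to 0.05), and -0.05 without that library. The co-chaperones DNAJB9, DNAJB11 and DNAJC3, the chaperone complex subunit SDF2L1, and the secreted ER stress proteins CRELD2 and MANF had log2 fold changes from -0.19 (MANF) to 0.10 (SDF2L1), and none had an adjusted p under 0.05. MANF alone of these 6 had groups that did not overlap, with 1333, 1272 and 1389 against 1248, 1171 and 1071 (adjusted p = 0.121).

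HYOU1, an ER relative of Hsp70 that exchanges nucleotide on HSPA5, was the most uneven member. Its normalized counts were 139, 492 and 141 in A375neg and 89.6, 167 and 926 in A375RIPK4.KO, so that 1 library of each group stood several-fold above the others. The log2 fold change of 0.61 ± 0.79 (SE) became -1.0 without A375RIPK4.KO replicate 3, and no direction can be read from it. The table lists another copy of the gene on an alternate scaffold, which had at most 2 counts in any library, and the antisense gene HYOU1-AS1 overlaps the locus. The part of either in the spread was not tested.

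The disulfide isomerases PDIA3, PDIA4 and PDIA6, which form and rearrange the bonds of folding proteins, had log2 fold changes of -0.02, -0.19 and 0.04. PDIA4 had 4032, 4116 and 4126 against 3161, 3623 and 3954, all lower in A375RIPK4.KO, with an adjusted p of 0.150. Without A375RIPK4.KO replicate 1 the log2 fold change of PDIA4 was -0.11. Of the ER-associated degradation genes, HERPUD1 and SEL1L, parts of the retrotranslocation complex, had log2 fold changes of -0.05 and -0.09. EDEM1, which hands misfolded glycoproteins on for degradation, had 1903, 1883 and 1982 against 1750, 1205 and 1705 (log2 fold change -0.31 ± 0.13, adjusted p = 0.136). The low value was that of A375RIPK4.KO replicate 2, the library with the length slope, and without it the log2 fold change of EDEM1 was -0.15. With the gene length correction it was -0.30 (adjusted p = 0.0830).

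**Figure D2:**
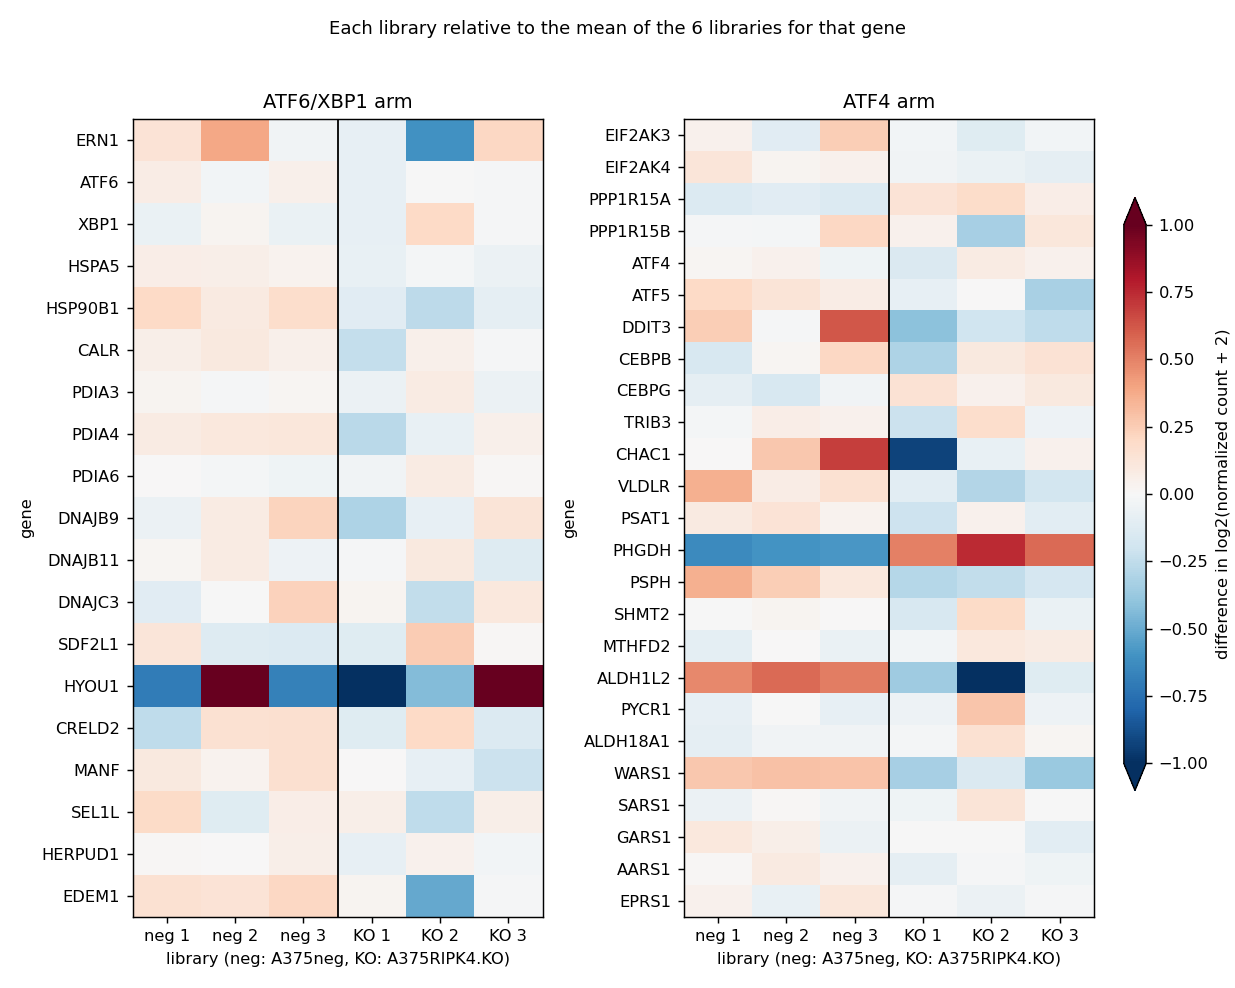
Each cell gives, for 1 member (rows) in 1 library (columns), the difference in log2(normalized count + 2) from the mean of the 6 libraries for that gene, on a scale from -1 to 1, with the groups parted by a line. PHGDH is low in all 3 A375neg libraries and high in all 3 A375RIPK4.KO libraries, WARS1, PSPH and ALDH1L2 show the opposite, and HYOU1 is high in 1 library of each group.

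In the ATF4 arm 2 of the 25 members tested met the call, PHGDH and ALDH1L2 (8%, against 9.04% of all genes), and 5 passed the adjusted p alone, PHGDH and PPP1R15A higher and PSPH, WARS1 and ALDH1L2 lower (20%, against 16.6%). The groups did not overlap for 12 members (48.0%, against 36.5%), of which 4 were higher and 8 lower. An unadjusted p under 0.05 was reached by 11 of the 25 (44%, against 30.0% of all genes). The median log2 fold change was -0.07, the same to 2 decimals as in the other arm with all 6 libraries. Without A375neg replicate 3 the medians were -0.03 in the ATF4 arm and -0.06 in the ATF6/XBP1 arm. Without A375RIPK4.KO replicate 1 they were -0.07 and -0.05. The values of the ATF4 arm ran from -0.99 to 1.21, and those of the ATF6/XBP1 arm without HYOU1 from -0.31 to 0.10. The difference between the arms was not tested.

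At the top of the arm, EIF2AK3, the kinase that senses ER stress, had normalized counts of 333, 298 and 385 in A375neg and 318, 297 and 318 in A375RIPK4.KO (log2 fold change -0.12, 95% interval -0.40 to 0.15, adjusted p = 0.553), and on leaving out single libraries the value ran from -0.20 to -0.02. EIF2AK4, the kinase that senses uncharged tRNA, had 3848, 3614 and 3642 against 3446, 3375 and 3323. The EIF2AK4 groups were apart by a small margin, with a log2 fold change of -0.13 ± 0.06 (SE, adjusted p = 0.160). PPP1R15A (GADD34), the inducible subunit that brings phosphatase to eIF2alpha and so ends the response, had 2101, 2140 and 2104 in A375neg against 2539, 2628 and 2422 in A375RIPK4.KO. All 3 A375RIPK4.KO libraries lay above all A375neg libraries, and the group rose 1.20-fold (log2 fold change 0.26 ± 0.06 (SE), adjusted p = 0.0154 in edgeR's quasi-likelihood test). Its adjusted p was 0.0695, 0.0604 and 0.0616 without A375neg replicate 1, 2 and 3, with log2 fold changes of 0.25 to 0.27. PPP1R15B, the constitutive subunit, had a log2 fold change of -0.11 (95% interval -0.37 to 0.16).

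ATF4, the factor that gives the arm its name, had 5997, 6106 and 5772 in A375neg and 5379, 6279 and 6103 in A375RIPK4.KO. The log2 fold change was -0.01 ± 0.07 (SE; 95% interval -0.17 to 0.15; adjusted p = 0.948), so that its mRNA level differed by less than the spread between libraries. DDIT3 (CHOP), the factor linked to cell death under lasting stress, had 146, 122 and 190 against 91.8, 106 and 102. Every A375RIPK4.KO library lay below every A375neg library, but the fall, a log2 fold change of -0.60 ± 0.20 (SE), missed the threshold at an adjusted p of 0.0721. DDIT3 overlaps MARS1 and a further protein-coding gene in RefSeq, and the strand setting of the counting is not given in the sources used here. ATF5, a factor translated like ATF4, had 1161, 1104 and 1060 against 953, 1011 and 805 (log2 fold change -0.26 ± 0.09, adjusted p = 0.0875), and its adjusted p was 0.0198 without A375RIPK4.KO replicate 2 and 0.255 without A375neg replicate 1. Without A375RIPK4.KO replicate 3 the log2 fold change of ATF5 was -0.17 (adjusted p = 0.241). The C/EBP partners of ATF4 differed little, CEBPB at -0.04 and CEBPG at 0.19 (adjusted p = 0.0968, and 0.0471 without A375RIPK4.KO replicate 2). NUPR1, a stress-induced chromatin protein, had 3, 2 and 6 raw counts against 1, 0 and 0 and was too low to test.

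The stress effectors gave no call. TRIB3, a pseudokinase that ATF4 and DDIT3 raise, had 2587, 2750 and 2708 in A375neg and 2267, 2973 and 2530 in A375RIPK4.KO, with a log2 fold change of -0.05 ± 0.09 (SE, adjusted p = 0.767). CHAC1, which degrades glutathione, had 64.0, 77.4 and 104 against 32.8, 60.5 and 65.9. The CHAC1 groups overlapped and its log2 fold change was -0.62 ± 0.30 (SE, adjusted p = 0.207), which became -0.37 without A375RIPK4.KO replicate 1 and -0.41 without A375neg replicate 3. VLDLR, a lipoprotein receptor, had 227, 186 and 197 against 164, 144 and 155 (log2 fold change -0.40 ± 0.15, adjusted p = 0.101). Thus the mRNA of ATF4, of HSPA5 and of TRIB3 stayed within 1.5-fold by their intervals, whereas those of DDIT3 and CHAC1 leave a wider range, -1.05 to -0.15 and -1.31 to 0.06.

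The largest difference among the members tested was in serine synthesis. PHGDH, which makes the first committed step from glycolysis to serine, had normalized counts of 3035, 3106 and 3149 in A375neg and 6686, 7891 and 6990 in A375RIPK4.KO. Its mean rose from 3097 ± 57.2 to 7189 ± 627 (SD, n = 3 each), which is 2.32-fold, or 1.21 ± 0.07 on the log2 scale (SE, adjusted p = 8.87e-06 in edgeR's quasi-likelihood test). In raw counts PHGDH had 3036, 3372 and 3322 against 6117, 7560 and 6894, and the call held in each of the 13 alternatives that kept the call rule, with log2 fold changes of 1.15 to 1.27. PSAT1, the aminotransferase of the next step, had 6100, 6300 and 5877 against 4956, 5906 and 5314 (log2 fold change -0.18 ± 0.07, adjusted p = 0.148). It passed, at an adjusted p of 0.0107 and a log2 fold change of -0.24, only without A375RIPK4.KO replicate 2. Without A375RIPK4.KO replicate 1 the log2 fold change of PSAT1 was -0.12 (adjusted p = 0.322). PSPH, the phosphatase of the last step, had 891, 825 and 748 against 569, 586 and 618 and fell 1.39-fold (log2 fold change -0.47 ± 0.09 (SE), adjusted p = 0.00523). The PSPH groups were apart and the fall passed the adjusted p in all 13 alternatives, below the 1.5-fold limit.

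The ratio of PHGDH to PSPH counts was 3.41, 3.76 and 4.21 in A375neg and 11.7, 13.5 and 11.3 in A375RIPK4.KO, and that of PHGDH to PSAT1 was 0.493 to 0.536 and 1.32 to 1.35. These ratios are not per length, and the length slope differed between libraries. With the gene length correction the log2 fold changes were 1.25 for PHGDH, -0.19 for PSAT1 and -0.48 for PSPH. Per length of exon, PHGDH stood at 13.7 CPM per kb in A375neg and 31.8 in A375RIPK4.KO, PSAT1 at 113 and 100, and PSPH at 12.1 and 8.72. In the order of the 46 members by this level PHGDH was at place 25 in A375neg and 17 in A375RIPK4.KO. The 120 bases before its start (GRCh38.p14, chr1:119711814-119711933, plus strand) are given because PHGDH carries the largest change among the members, with the single CCAAT in capitals and no ERSE, TGATGNAAT or TGACGTGG:
PHGDH: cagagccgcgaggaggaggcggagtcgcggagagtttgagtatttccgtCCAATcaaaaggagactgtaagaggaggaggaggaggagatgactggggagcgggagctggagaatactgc

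Of the other amino acid synthesis genes none passed the adjusted p. PYCR1 and ALDH18A1, enzymes of proline synthesis, had log2 fold changes of 0.13 and 0.11, with adjusted p of 0.424 and 0.300, and that of PYCR1 was 0.01 without A375RIPK4.KO replicate 2. ASNS, asparagine synthetase, is usually among the clearest ATF4 targets, but the table lists it with 7, 4 and 2 raw counts in A375neg and 4, 15 and 3 in A375RIPK4.KO, too few to test. The read-through gene CZ1P-ASNS spans the same locus in RefSeq and was listed at 0 to 3 counts. Whether reads shared by both names were set aside in the counting was not tested, so no level of ASNS is read from these counts.

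**Figure D3:**
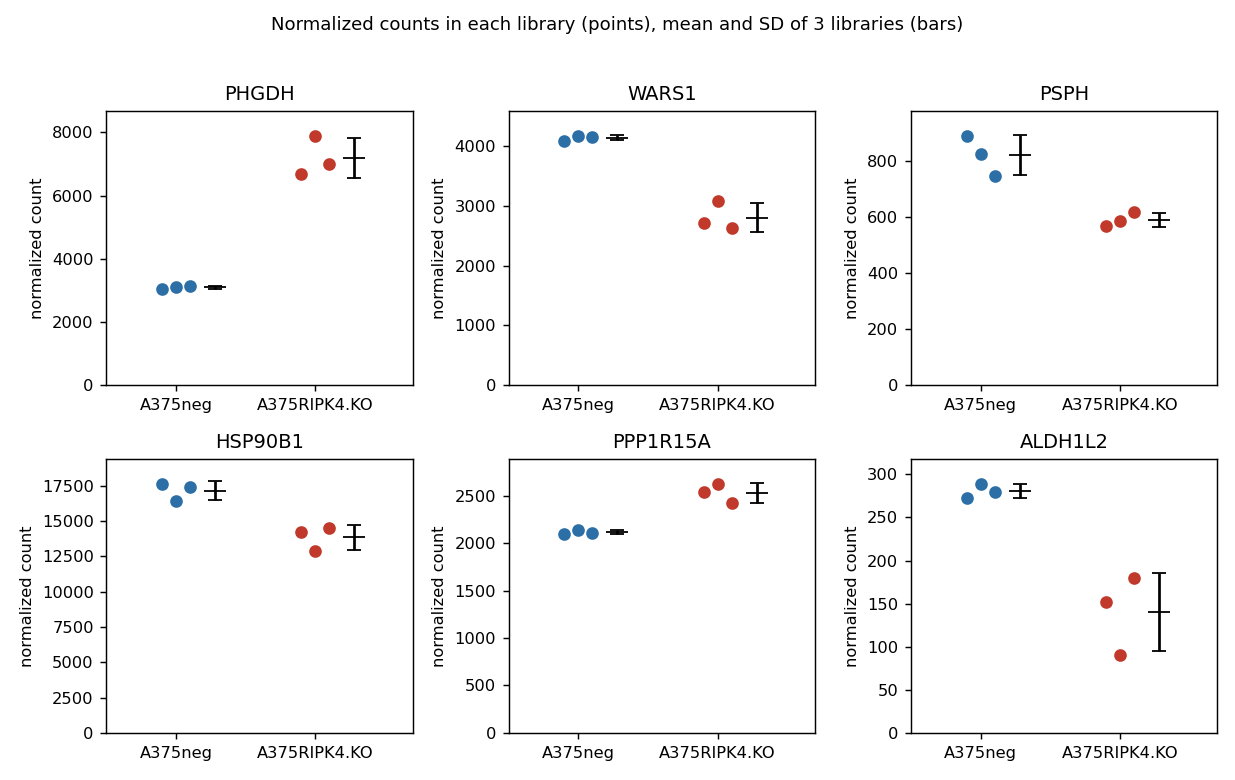
Normalized counts (y axis, from 0) of the 6 members with an adjusted p under 0.05 are drawn for each library (points) with the mean and SD of the 3 libraries of a group (bars). The groups do not overlap in any of the 6 panels, PHGDH and PPP1R15A are higher in A375RIPK4.KO, and the points of ALDH1L2 are the most spread in A375RIPK4.KO.

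Of the 3 mitochondrial one-carbon genes 1 passed the adjusted p (33.3%, against 16.6% of all genes). SHMT2, which takes a carbon from serine, and MTHFD2, which oxidizes it, had log2 fold changes of -0.01 (95% interval -0.22 to 0.19) and 0.11 (-0.03 to 0.25). ALDH1L2, which oxidizes formyl-tetrahydrofolate to carbon dioxide and makes NADPH, had 273, 289 and 280 in A375neg and 152, 90.8 and 179 in A375RIPK4.KO. It fell 1.99-fold, from 281 ± 8.19 to 141 ± 45.4 (SD, n = 3 each; log2 fold change -0.99 ± 0.22 (SE), adjusted p = 0.0155 in edgeR's quasi-likelihood test). All A375RIPK4.KO libraries were lower and replicate 2 was the lowest. The call was lost without A375neg replicate 2 (adjusted p = 0.0593) and without A375neg replicate 3 (adjusted p = 0.0512), with log2 fold changes of -0.97 and -1.0. Without A375RIPK4.KO replicate 2 the log2 fold change was -0.76 and the call held. The ratio of MTHFD2 to ALDH1L2 counts was 25.2, 25.4 and 25.0 in A375neg against 47.4, 87.2 and 43.2.

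Of the 5 aminoacyl-tRNA synthetases of the arm, which load amino acids onto tRNA, 1 fell at an adjusted p under 0.05. That is 20% of them, against 8.24% of all genes lower and 16.6% either way. WARS1, the tryptophanyl-tRNA synthetase, which interferon is also known to raise, had 4095, 4173 and 4160 in A375neg and 2710, 3076 and 2627 in A375RIPK4.KO. The fall was 1.48-fold, a log2 fold change of -0.56 ± 0.07 (SE, adjusted p = 6.57e-04), just under the 1.5-fold limit, and it passed the adjusted p in all 13 alternatives. Without A375RIPK4.KO replicate 2 the log2 fold change was -0.63 and WARS1 met the full call. SARS1, GARS1, AARS1 and EPRS1 had log2 fold changes of 0.06, -0.07, -0.10 and -0.06, and their intervals together spanned -0.22 to 0.20. The ratio of SARS1 to WARS1 counts was 0.799 to 0.822 in A375neg and 1.21 to 1.29 in A375RIPK4.KO.

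Per length, the levels of the members tested in A375neg ran from 0.300 CPM per kb for ERN1 to 325 for CALR. After CALR, the highest in A375neg were HSP90B1 at 149, HSPA5 at 136, PSAT1 at 113, PDIA3 at 101 and ATF4 at 96.6 CPM per kb, and the same 6 genes led in A375RIPK4.KO with HSPA5 at 127 above HSP90B1 at 120. ERN1 stood at 0.244 in A375RIPK4.KO. Within a group, the coefficient of variation of the normalized counts had a median over the 44 members of 3.72% in A375neg and 8.29% in A375RIPK4.KO. The 2 largest were those of HYOU1, 78.9% and 117%. Averaged over the 25 members of the ATF4 arm, the deviation of a library from the mean of all 6 was 0.04, 0.04 and 0.09 (log2) in A375neg and -0.12, -0.02 and -0.03 in A375RIPK4.KO. For the ATF6/XBP1 arm without HYOU1 it was 0.04, 0.05 and 0.07 against -0.09, -0.06 and -0.01. With HYOU1 it was 0.0026, 0.11 and 0.03 against -0.15, -0.08 and 0.10, and the groups overlapped. In both arms A375RIPK4.KO replicate 1 was the lowest library.

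The other genes of the same pathways, 75 in 5 lists, gave 67 that could be tested. Of these 4 were changed (5.97%, against 9.04% of all genes), and all 4 were lower in A375RIPK4.KO (4.65% of all genes). The adjusted p alone was passed by 9 (13.4%, against 16.6%), 2 higher (8.40% of all genes) and 7 lower (8.24% of all genes). The median log2 fold change over the 67 was -0.0049. The lists were chosen with earlier results of these data known, so the shares and medians by list are no test of the lists. Among 17 tested, the list of other ATF4-linked genes had a median of -0.22. It held 3 of the 4 changed genes, all lower (17.6% of those tested, against 4.65% of all genes). The remaining one was ERO1B, and among 15 other cytosolic aminoacyl-tRNA synthetases and 10 genes of the eIF2 machinery 0 were changed, with medians of 0.04 and 0.04. In those lists 3 of 15 and 2 of 10 genes had an unadjusted p under 0.05 (20% of each, against 30.0% of all genes), as did 10 of the 17 other ATF4-linked genes (58.8%). The adjusted p was passed by 1 gene in each of the first pair, FARSB and EIF2B3, at log2 fold changes of 0.29 and 0.43, lost without A375neg replicate 2 and 3 respectively (adjusted p = 0.0568 and 0.0538). CBS, the first enzyme of transsulfuration, had 0, 5 and 9 raw counts in A375neg and 18, 12 and 42 in A375RIPK4.KO (log2 fold change 2.46 ± 0.78 (SE), adjusted p = 0.0618). CBS met the call as higher with DESeq2, with the gene length correction, with a replicate block and without A375RIPK4.KO replicate 2, and CARS1 met it as lower without A375neg replicate 2. Over the 13 alternatives that kept the call rule the number changed was 3 to 5, with DDIT4, ATF3 and ERO1B among them each time.

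DDIT4 (REDD1), an inhibitor of mTORC1 that ATF4, hypoxia and glucocorticoids are known to raise, had 3468, 3642 and 3455 raw counts in A375neg and 1098, 1179 and 1107 in A375RIPK4.KO. Its log2 fold change was -1.51 ± 0.06 (SE, adjusted p = 1.05e-06). ATF3, a stress-induced repressor, had 439, 428 and 466 against 155, 190 and 172 (log2 fold change -1.23 ± 0.12 (SE), adjusted p = 1.41e-04). The groups of both genes did not overlap and both calls held in all 13 alternatives, with log2 fold changes of -1.53 to -1.47 for DDIT4 and -1.30 to -1.19 for ATF3. ERO1B, an oxidase that recharges disulfide isomerases, had 476, 474 and 498 against 299, 270 and 271 (log2 fold change -0.65 ± 0.11, adjusted p = 0.00302). STC2, a secreted glycoprotein, had 184, 193 and 190 against 124, 95 and 123 (log2 fold change -0.59 ± 0.16, adjusted p = 0.0379). The STC2 call was lost, at adjusted p of 0.0552 to 0.104, with no filter on low counts and without A375neg replicate 1, 2 or 3 or A375RIPK4.KO replicate 2 or 3, and with the gene length correction its log2 fold change of -0.58 was under the 1.5-fold limit.

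The amino acid transporter subunits SLC7A5 and SLC3A2, which form 1 exchanger of leucine and glutamine, fell together and by less than 1.5-fold, each with a log2 fold change of -0.29 (SE 0.06 and 0.07; adjusted p = 0.0132 and 0.0169). Each failed to pass the adjusted p on leaving out some single libraries. For SLC7A5 these were A375neg replicate 1, 2 or 3 (adjusted p = 0.0600 to 0.0641). For SLC3A2 they were A375neg replicate 1 or 2 or A375RIPK4.KO replicate 3 (adjusted p = 0.0683 to 0.0863). On leaving out each library the log2 fold change ran from -0.31 to -0.25 for SLC7A5 and from -0.33 to -0.24 for SLC3A2. CREB3L2, a membrane-tethered factor related to ATF6, had a log2 fold change of -0.40 ± 0.10 (SE, adjusted p = 0.0225). It did not pass without A375neg replicate 1 or 3 (adjusted p = 0.0973 and 0.0792). CANX, the membrane partner of CALR, had its counts split with a scaffold copy that took more of them, and its adjusted p did not pass.

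**Figure D4:**
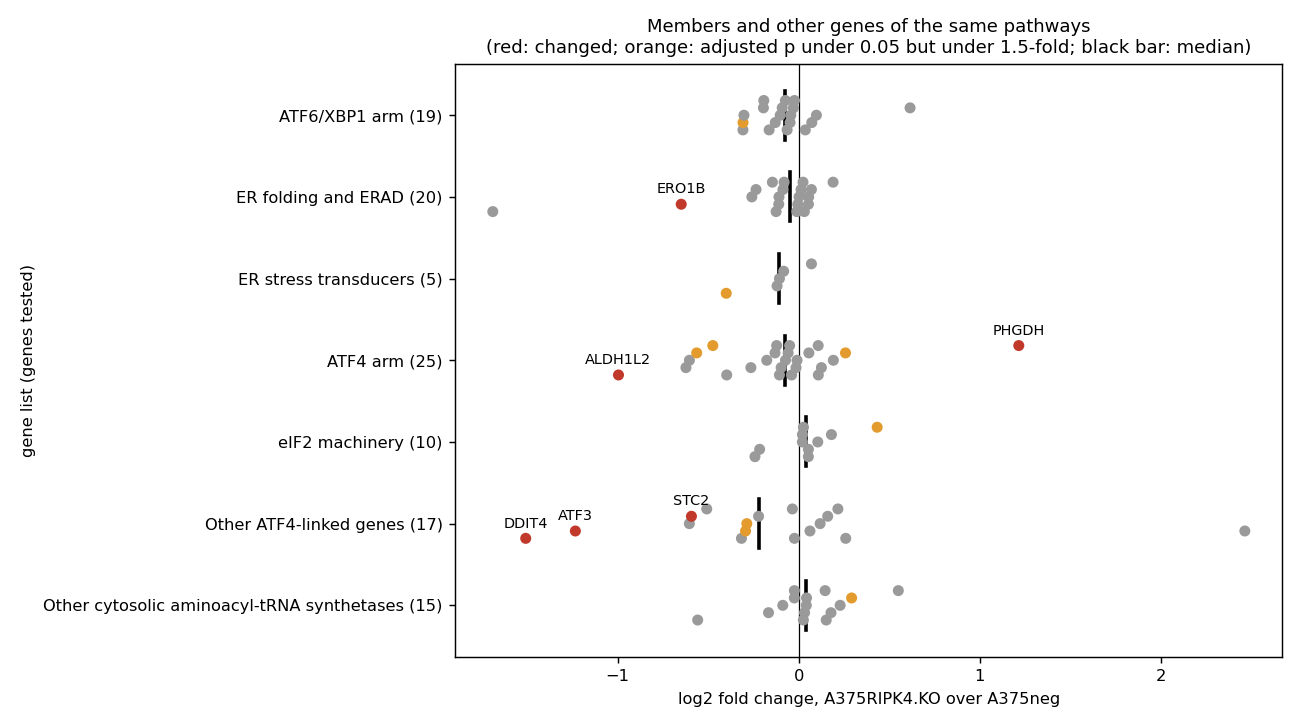
The log2 fold change of A375RIPK4.KO over A375neg (x axis) is drawn for the members by arm and for the 5 lists of other pathway genes (rows, with the number tested), with the median of each list as a bar. The named red points are the 6 changed genes, 5 of them left of 0, and the grey points farthest out, at -1.69 and 2.46, are CANX and CBS, whose counts were uneven or low.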

How the data were processed

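Raw counts per gene of 6 A375 libraries were analysed. The reads had been trimmed, mapped and counted by the authors' provider, and the submitters' processing notes name cutadapt, FastQC, HISAT2, HTSeq, DESeq2 and GRCh38.p13, without versions or settings. The deposited table holds the raw counts as whole numbers, the authors' normalized counts (a signal, each library's raw counts scaled by its own size factor) and the authors' own comparison (fold change, its log2, Wald statistic, p and FDR). Only the raw counts were used.

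The test was edgeR 4.0.16 in R 4.3.3 (TMM, filterByExpr, quasi-likelihood test, group as the only term, Benjamini-Hochberg adjustment over 14443 genes). The SE is the log2 fold change over the square root of its test statistic. Normalized counts are raw counts over TMM-scaled library size relative to the mean. Levels per kilobase use the union of exons in GENCODE v29. A count of 0 allows up to 3 counts (0.112 to 0.137 CPM), for counting error only. Genes given per library were the main sensors, factors and markers of stress and every member with an adjusted p under 0.05. A few others (CALR, HYOU1, MANF, PDIA4, EDEM1, ATF5, VLDLR, NUPR1 and PSAT1) were chosen after their values were seen, as were the other pathway genes named without meeting the call. The members and lists were chosen with earlier results of these data known. Alternatives were DESeq2 1.42.0, its size factors in edgeR, no filter, a mean of 50 counts or more, a replicate block, a gene length correction, other call rules and each library left out. The fits were first tested on simulated data in which 200 genes differed. With 3 libraries against 3, an exact permutation test of 1 gene cannot go below p = 0.1, so none is given. Plots used matplotlib 3.10.9 under Python 3.11.15.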

Additional observations from a re-analysis of the deposited data

How the results depend on the processing

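The number of changed members was 0 of 19 in the ATF6/XBP1 arm under every alternative that kept the call, and 1 (HSP90B1) with no limit on the fold change. In the ATF4 arm it was 2 in the main analysis and 1 to 3 on leaving out each library. PHGDH alone remained without A375neg replicate 2 and without A375neg replicate 3, and WARS1 was added without A375RIPK4.KO replicate 2. It was 5 with no limit on the fold change and 0 with a log2 fold change beyond 1.5. Among the other pathway genes 4 became 9 with no limit on the fold change and 1 (DDIT4) beyond 1.5. The medians of the arms stayed below 0 in all alternatives but moved by over 1.5 times on leaving out single libraries. That of the ATF6/XBP1 arm, -0.0734, was -0.0452 without A375RIPK4.KO replicate 1 and -0.14 without A375RIPK4.KO replicate 3, and that of the ATF4 arm, -0.0729, was -0.0308 without A375neg replicate 3. The split of the ATF4 arm, 7 above 0 and 18 below, was 11 and 14 without A375RIPK4.KO replicate 1. The correlations of the deviations of same-numbered libraries were 0.0823, 0.0357 and -0.0119. Those of differently numbered libraries ran from -0.0956 to 0.0674. These values do not settle whether the cultures were paired. The fit with a replicate block gave 0 and 2 changed members and 5 other genes, with ATF5 passing at an adjusted p of 0.0469.

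Of the 38 members tested whose adjusted p was 0.05 or more, 8 stayed within 1.5 times of their log2 fold change on leaving out each library, 17 moved further with the same sign and 13 turned in sign. With the gene length correction SHMT2 was at 0.0023. On leaving out each library the log2 fold change ran from -0.0108 to 0.13 for XBP1, -0.0497 to 0.0572 for ATF4, -0.16 to 0.0388 for TRIB3, -0.0663 to 0.0028 for PDIA3, -0.0838 to 0.0288 for DNAJB11, -0.15 to 0.0288 for DNAJC3, -0.0083 to 0.19 for SDF2L1, -1.0 to 1.5 for HYOU1, -0.17 to 0.0245 for CRELD2, -0.17 to 0.0110 for SEL1L, -0.19 to 0.0218 for PPP1R15B, -0.13 to 0.0913 for CEBPB and -0.12 to 0.0608 for SHMT2. Leaving out a library leaves 2 against 3, and the number of genes passing the adjusted p then moved over the whole table. It was 2403 of 14443 with all libraries. Without A375neg replicate 1, 2 or 3 it was 1584 of 14859, 1526 of 14835 and 1653 of 14867. Without A375RIPK4.KO replicate 1, 2 or 3 it was 2129 of 14827, 2952 of 14931 and 1731 of 14904. Lost and gained calls of single genes are to be read beside these numbers, and their cause was not tested. Summing the counts of gene copies, an alternative chosen after seeing the data, changed no call. The low counts of ERN1 and CHAC1 go with wide intervals, and NUPR1 and ASNS had too few counts to test.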
